A study of Arabidopsis thaliana with 28 samples.

Results

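The first-hour response to hydrogen peroxide (H2O2) in the Arabidopsis thaliana root tip was read on 8 arrays, chosen by their labelled time of 1 h from the 28 arrays of the series. They comprised 4 arrays of roots on 1 mM H2O2 (2 of the meristematic zone and 2 of the elongation zone) and 4 arrays of roots moved to medium without H2O2 (2 of each zone). All plants were unmodified seedlings of accession Columbia-0, labelled as 5 days old, grown on MS medium with sucrose and agarose. Root tips were cut with a razor blade after treatment, so both zones of a replicate may come from the same roots. Each replicate held 30 roots, which makes every array a pool, and the labels call the 2 replicates of a group biological. The control medium was sampled at 0, 1, 3 and 6 h and H2O2 at 1, 3 and 6 h, and the other arrays are used below only to set the 1 h values in time. The study's purpose, per its design text, was to follow expression in proliferating and in elongating root cells.

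Hydrogen peroxide is a by-product of respiration and photosynthesis and is also made on purpose at the cell surface, where NADPH oxidases produce superoxide that is turned into H2O2. In the root tip it takes part in the balance between division and elongation, and in the cell wall it serves peroxidases that cross-link wall polymers. Plant cells answer an excess with thiol-based redox proteins such as glutaredoxins, with conjugating enzymes such as glutathione transferases and glucosyltransferases, and with stress transcription factors. Moving a seedling to a new plate also disturbs it, and early touch and wound genes overlap with early oxidative stress genes, so control medium at the same time is the comparison of interest.

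Signals are linear array intensities. Median signals of the 8 arrays lay between 53.1 and 75.9, and the share of probe sets with a signal under 16 was 27.2% to 30.5%. The ratio of 3' to 5' probe sets of GAPDH, a sign of RNA quality, lay between -0.20 and 0.69 on the log2 scale and that of actin between 3.84 and 4.32, with overlapping ranges in H2O2 and control arrays of each zone. The labelled zones were checked with markers. The summed signal of the 4 measured mitotic genes (AUR1, AUR2, AUR3 and BUBR1) was 1506 to 1782 on the meristematic arrays and 252 to 453 on the elongation arrays. BBM, a meristem regulator, had signals of 157 to 211 in the meristematic zone and of at most 7.34 in the elongation zone. UPB1, a regulator of the exit to elongation, had 21.4 to 41.0 in the meristematic zone and 430 to 1829 in the elongation zone. Shoot photosynthesis markers had no matched probe set. The control arrays of replicate 1 stood apart from the other 1 h arrays of their zone, in both zones. That check is described in full further on, and values against each control replicate are given for the results that rest most on those arrays.

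After 1 h on H2O2, few genes were clearly higher or lower than on control medium, and nearly all that passed the test were higher. The named ones were a pair of neighbouring acyltransferase genes, a glutaredoxin, a lipid-modifying acyltransferase, a flavin-dependent oxidoreductase, a methyltransferase and a TolB-related protein. A single gene, coding for a cell wall protein of the DUF642 family, was lower. In limma's moderated test of the mean of both zones, 11 of 22746 probe sets passed an adjusted p of 0.05, which is 0.0484% of those tested. Of these, 10 were higher (0.044%) and 1 was lower (0.0044%) on H2O2, and 8 had 1 annotated gene. At an unadjusted p under 0.05 there were 832. With the replicate number added as a block, 70 were called, all 11 among them, though the labels do not say that a number marks a shared day. For all 11 called probe sets, both H2O2 arrays lay beyond both control arrays in each zone, which held for 2.25% of all probe sets on the high side and 2.7% on the low side. The same arrays gave the calls, so nothing is read from that share. Every fold change below was taken after adding 16 to the signal, as a log2 difference, so the change of a dim gene is understated.

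The largest change among called genes with 1 annotated gene belonged to 2 genes that are direct neighbours in gene order. AT5G07860 and AT5G07870 both code for acyltransferases of the HXXXD type, a plant family that attaches acyl groups to alcohols and amines. AT5G07860 had elongation zone signals of 1521 and 2269 on H2O2, against 255 and 734 on control medium. Its meristematic signals were 996 and 1426 on H2O2, against 325 and 616 on control medium. The groups did not overlap, and the control array of replicate 1 was the lower control in each zone. Its log2 fold change over both zones was 1.72 ± 0.31 (SE, adjusted p = 0.0474).

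AT5G07870 gave 2101 and 2769 on H2O2 in the elongation zone, against 401 and 875 on control medium. Its meristematic signals were 580.5 and 649 on H2O2, against 149 and 338 on control medium. Here too every H2O2 array was above every control array of its zone. The log2 fold change was 1.69 ± 0.24 (SE, adjusted p = 0.0128). A probe set may also capture RNA of a closely related gene, and the separate values of these neighbours carry that uncertainty.

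GRX480, a CC-type glutaredoxin that binds TGA transcription factors, was dim but tight between replicates. On H2O2 it had 64.6 and 61.1 in the meristematic zone and 146 and 115 in the elongation zone. On control medium it had 27.0 and 26.0 in the meristematic zone and 31.2 and 27.6 in the elongation zone. The lowest H2O2 value of each zone was well above the highest control value, and the control arrays of both replicates lay close together. The log2 fold change was 1.29 ± 0.20 (SE, adjusted p = 0.0128), and it was 1.25 against the control arrays of replicate 1 and 1.33 against those of replicate 2.

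AT4G01870, a TolB-related protein known as a marker of chemical and oxidative stress, was likewise separated from its controls. Its elongation zone signals were 1601 and 1470 on H2O2, against 460 and 477 on control medium. Meristematic signals were 676 and 1184 on H2O2, against 527 and 603 on control medium, with the H2O2 array of replicate 1 close to the controls. The log2 fold change was 1.16 ± 0.19 (SE, adjusted p = 0.0172).

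Enzymes of lipid and redox metabolism made up the next group. AT4G24160 codes for an alpha/beta hydrolase that acylates lysophosphatidic acid, a step of phospholipid synthesis. It gave 2094 and 2286 on H2O2 in the elongation zone, against 759 and 1346 on control medium, and 612 and 725 on H2O2 in the meristematic zone, against 253 and 392.1 on control medium. The groups were apart in both zones, with a log2 fold change of 1.07 ± 0.16 (SE, adjusted p = 0.0128). AT3G44190 codes for an FAD/NAD(P)-binding oxidoreductase. Its signals were 4904 and 6016 on H2O2 in the elongation zone, against 2003 and 3107 on control medium, and 1271 and 1486 on H2O2 in the meristematic zone, against 684 and 760 on control medium. No arrays of the groups overlapped, and the log2 fold change was 1.02 ± 0.17 (SE, adjusted p = 0.0172). AT5G10830, a gene of the S-adenosylmethionine-dependent methyltransferase family, had 2947 and 3591 on H2O2 in the elongation zone, against 1383 and 1669 on control medium. Its meristematic signals were 795 and 919 on H2O2, against 511 and 587 on control medium, and the log2 fold change over both zones was 0.86 ± 0.14 (SE, adjusted p = 0.0172).

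**Figure D1:**
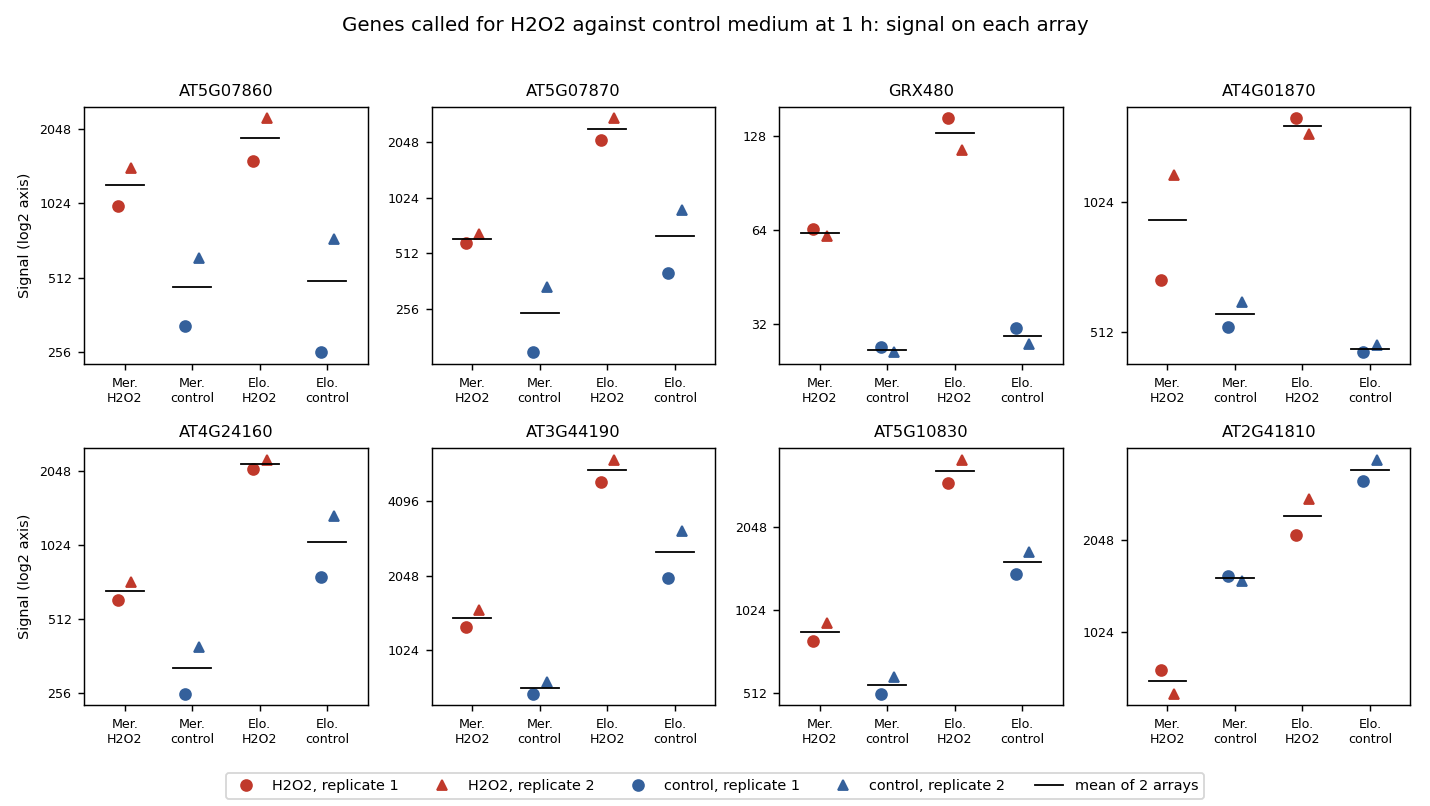
Signals (log2 axis, array intensity) of the 8 called genes on the 8 arrays of 1 h; red marks H2O2 and blue control medium, circles replicate 1 and triangles replicate 2, and the black line is the mean of 2 arrays. In every panel both H2O2 arrays lie on 1 side of both control arrays of their zone, above them for 7 genes and below them for AT2G41810.

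AT2G41810, a cell wall protein gene of the DUF642 family, was the called gene that was lower on H2O2 than on control medium. Its meristematic signals were 770 and 645 on H2O2, against 1565 and 1505 on control medium. Elongation zone signals were 2123 and 2779 on H2O2, against 3178 and 3739 on control medium. All H2O2 arrays were below the controls of their zone, and the meristematic arrays were farther from theirs (log2 fold change -1.10 ± 0.18, SE) than the elongation arrays (-0.50 ± 0.18), a difference between zones of 0.60 ± 0.23 that did not pass the test (adjusted p = 1.0). Over both zones the log2 fold change was -0.80 ± 0.14 (SE, adjusted p = 0.0245). At 0 h the gene had 933 and 840 in the meristematic zone and 4861 and 3638 in the elongation zone. In the meristematic zone the 1 h controls were thus above the 0 h arrays. The H2O2 arrays there were nearer to 0 h than to the 1 h controls.

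The other 3 called probe sets are not listed with a gene in the annotation used here. Probe set 250182_at had 46.2 and 43.4 on H2O2 in the meristematic zone, against 2.35 and 23.4 on control medium, and 264 and 256 on H2O2 in the elongation zone, against 23.9 and 93.8 on control medium. Probe sets 248981_at and 247351_at had log2 fold changes of 1.35 ± 0.20 and 1.07 ± 0.16 (SE). All 3 had an adjusted p of 0.0128.

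The count of 11 depended on single arrays. In limma it was 0 without the meristematic H2O2 array of replicate 2 (766 at an unadjusted p under 0.05), 0 without the meristematic control array of replicate 1 (673), 1 without the elongation H2O2 array of replicate 1 and 97 without the elongation control array of replicate 2. No called gene changed direction in those fits. As the H2O2 and control arrays of these genes did not overlap, little else was possible. Of the 8 fits that leave out 1 array each, AT5G07870 was called in 6, GRX480 and AT4G24160 in 5, AT4G01870 and AT2G41810 in 4, AT3G44190 and AT5G10830 in 3 and AT5G07860 in 2.

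Genes next in order did not pass the test and are given as values. The first by p that was higher was AT5G14730, with 742 and 1072 on H2O2 in the elongation zone, against 118 and 298 on control medium, and 225 and 527 on H2O2 in the meristematic zone, against 94.5 and 161 on control medium. Its log2 fold change was 1.76 ± 0.33 (SE, adjusted p = 0.0595). AT1G25400 (1.39 ± 0.31), AT3G20340 (1.58 ± 0.38), AT5G66650 of the mitochondrial calcium uniporter family (1.21 ± 0.28) and AT5G64250, a nitronate monooxygenase-like gene (1.03 ± 0.23), also had both H2O2 arrays above both controls in each zone, with adjusted p between 0.194 and 0.291. So had the pirin-like AT1G50590 (0.83 ± 0.18), the GARP-type transcription factor gene AT1G25550 (0.62 ± 0.13) and WRKY6 (0.69 ± 0.16), with adjusted p between 0.114 and 0.242. Several of these values were larger against the control arrays of replicate 1 than against those of replicate 2. Against those of replicate 2 alone the log2 fold change was 0.71 for AT3G20340, 0.66 for AT5G66650, 0.82 for AT1G25400, 0.34 for AT1G25550 and 1.28 for AT5G14730. Against those of replicate 1 it was 2.45 for AT3G20340, 1.76 for AT5G66650, 1.97 for AT1G25400, 0.90 for AT1G25550 and 2.23 for AT5G14730. WRKY6, a stress-responsive transcription factor, had 992 and 732 on H2O2 in the elongation zone, against 385 and 458 on control medium. AT1G50590 was dim, with 13.8 and 22.0 on H2O2 in that zone, against 2.03 and 3.54 on control medium. At 0 h it had 21.4 and 16.2 there, within the H2O2 range. In the meristematic zone it had 19.8 and 20.1 on H2O2, 4.32 and 4.77 on control medium and 12.1 and 12.6 at 0 h.

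On the low side the first gene that missed the threshold was AT2G43890, a pectin lyase-like gene of pectin breakdown. It had 739 and 1361 on H2O2 in the elongation zone, against 1706 and 2651 on control medium, and 35.5 and 27.3 on H2O2 in the meristematic zone, against 75.5 and 183 on control medium (log2 fold change -1.29 ± 0.25, SE, adjusted p = 0.0716). It was at -0.86 against control replicate 1 and -1.73 against control replicate 2. At 0 h it had 23.4 and 25.3 in the meristematic zone, below its H2O2 arrays. In the elongation zone it had 1283 and 1803 at 0 h, which overlapped its H2O2 arrays. UGT72E2, which glucosylates monolignols such as coniferyl alcohol, had 644 and 707 on H2O2 in the elongation zone, against 1056 and 985 on control medium. Its meristematic signals were 336 and 388 on H2O2, against 531 and 501 on control medium (-0.54 ± 0.11, SE, adjusted p = 0.128). The 0 h arrays of UGT72E2 were above its H2O2 arrays in both zones. AT2G16660, a transporter gene of the major facilitator family, was at -1.05 ± 0.24 (adjusted p = 0.195), AT3G51660, of the macrophage migration inhibitory factor family, at -0.61 ± 0.16 (adjusted p = 0.38) and AT1G36060, an AP2-type transcription factor gene, at -0.68 ± 0.18 (adjusted p = 0.467). In the elongation zone AT2G16660 had 592 and 625 at 0 h, between its H2O2 signals of 719 and 500. In the meristematic zone its 0 h signals of 296 and 144 were above those on H2O2 (100 and 113). The remaining ones, AT1G67790 (-0.59 ± 0.13), AT3G62640 (-0.80 ± 0.22) and AT2G30680 (-0.65 ± 0.19), had signals under 28 on all 8 arrays.

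Taken by zone, calls were made in the elongation zone, but no probe set was shown to differ between zones. In the elongation zone 8 probe sets passed the test (0.0352% of those tested), 7 higher (0.0308%) and 1 lower (0.0044%) on H2O2, and 5 of them were also called over both zones. In the meristematic zone limma called 0, with 517 at an unadjusted p under 0.05, against 1528 in the elongation zone. For the difference between the zones limma also called 0, with 1018 at an unadjusted p under 0.05. Without the elongation control array of replicate 2 the elongation count was 205, and leaving out the elongation H2O2 array of replicate 1 or that of replicate 2 gave 0 (1464 and 1481 at an unadjusted p under 0.05). It was 2 without the elongation control array of replicate 1.

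The genes called over both zones had values on the same side of 0 in each zone. GRX480 had a log2 fold change of 1.69 ± 0.26 in elongating tissue (SE, adjusted p = 0.0187) and 0.89 ± 0.26 in the meristem, a difference of 0.79 ± 0.34. AT4G01870 had 1.68 ± 0.25 in elongating tissue (adjusted p = 0.0187) and 0.65 ± 0.25 in the meristem, a difference of 1.03 ± 0.33 (adjusted p = 0.931). AT5G07870 had 1.99 ± 0.31 in elongating tissue (adjusted p = 0.0187) and 1.38 ± 0.31 in the meristem. AT4G24160 was at 1.10 ± 0.22 and AT3G44190 at 1.12 ± 0.22 in the elongation zone, against 1.04 ± 0.22 and 0.92 ± 0.22 in the meristematic zone, so their zone differences were within 1 standard error.

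The gene called lower in the elongation zone was AT5G53320, a leucine-rich repeat kinase gene. It had 2.18 and 0.78 on H2O2, against 22.9 and 30.6 on control medium, and at most 1.34 on any meristematic array of 1 h. The log2 fold change in the elongation zone was -1.29 ± 0.18 (SE, adjusted p = 0.0177). These are dim signals: at 0 h the same zone had 0.80 and 3.44, so the 1 h controls were the high arrays. The difference between zones was -1.32 ± 0.24 (adjusted p = 0.39).

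Gene lists for redox and stress functions were then read by their measured members. Of 252 entries in the lists, 63 had a single-gene probe set, and lists with no measured member (ethylene, DNA damage and shoot photosynthesis) are left aside. Over all 13286 single genes the median log2 fold change at 1 h was -0.0026 and 8 were called.

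Detoxification genes were the list with called members. Of 39 entries 12 were measured, 2 were called higher (GRX480 and AT4G01870, against a background of 0.044% of probe sets called higher) and 0 lower, and 9 of 12 had a positive log2 fold change. The members were chosen with earlier results of these data known, so these counts are a description and test no enrichment. The list's median was 0.44, and it was 0.61 against the control arrays of replicate 1 and 0.35 against those of replicate 2. By zone the median was 0.87 for elongation and 0.19 for the meristem. The glucosyltransferase UGT73B5, which acts on flavonols and xenobiotics, had 561 and 654 on H2O2 in the elongation zone, against 191 and 281 on control medium. Its meristematic signals were 115 and 230 on H2O2, against 104 and 114 on control medium, a narrow gap (log2 fold change over both zones 0.92 ± 0.23, SE, adjusted p = 0.346). Its relatives UGT73B1 (0.88 ± 0.36) and UGT73B4 (0.81 ± 0.20) were also not called, and UGT73B1 was at 1.35 against control replicate 1 and 0.42 against control replicate 2. GSTU25, a tau-class glutathione transferase, had 1447 and 2794 on H2O2 in the meristematic zone, against 2442 and 1682 on control medium, so the groups overlapped there. Elongation zone signals were 1984 and 2119 on H2O2, against 1012 and 1126 on control medium.

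The measured genes of the antioxidant and redox list had a median near 0, and most entries of that list were not measured. In the antioxidant and redox list 7 of 30 entries were measured, 0 were called and the median log2 fold change was 0.042. Sulfiredoxin (SRX), which reactivates over-oxidised peroxiredoxins, had 132 and 125 on H2O2 in the meristematic zone, against 85.9 and 110 on control medium, and 127 and 138 on H2O2 in the elongation zone, against 99.7 and 150 on control medium (0.23 ± 0.16, SE). The glutathione reductase genes GR and GR1 were at -0.15 and -0.057, and the 2-Cys peroxiredoxin gene AT3G11630 at 0.07 ± 0.14. MSRB5, a methionine sulfoxide reductase, was at -0.31 ± 0.23, with 0.046 against control replicate 1 and -0.67 against control replicate 2. Its relative MSRB6 was at 0.63 ± 0.37 in the meristematic zone and -0.51 ± 0.37 in the elongation zone, a difference that did not pass the test. Its meristematic signals were dim and overlapped, with 48.6 and 15.0 on H2O2, against 10.9 and 15.1 on control medium. Of the NADPH oxidases 3 of 10 entries were measured, with a median log2 fold change of 0.014, a highest value of 0.10 (AT4G11230) and 0 called. These 3 genes were dim on the arrays of 1 h, so their changes are understated. AT1G19230 had 17.2 to 56.3, AT4G25090 had 3.07 to 34.2 and AT4G11230 had 1.83 to 25.2.

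Hallmark genes of general oxidative stress and of mitochondrial dysfunction had medians near 0 at 1 h, with a few higher members that were not called. Of the hallmarks 4 of 5 entries were measured, 0 were called and the median was 0.045. On the arrays of 1 h AT1G57630 had at most 6.22 and AT1G19020 had 7.85 to 34.3, so their changes are understated. AT1G05575 was the highest of the hallmarks. It had 161 and 211 on H2O2 in the elongation zone, against 29.8 and 154 on control medium. Its meristematic signals were 110 and 112 on H2O2, against 36.2 and 86.7 on control medium. Its log2 fold change of 0.99 ± 0.34 (SE, adjusted p = 0.984) was 1.70 against the control arrays of replicate 1 and 0.27 against those of replicate 2. In the mitochondrial dysfunction list 6 of 11 entries were measured, 0 were called and the median was -0.048. Dim members were AT2G04050 (3.77 to 23.8 on the arrays of 1 h), AT2G04070 (4.90 to 39.8) and AT2G41380 (2.57 to 57.6). A median near 0 therefore says little about them. The methyltransferase gene AT2G41380 was at 0.98 ± 0.31 (adjusted p = 0.804), and NDB2, an alternative NADH dehydrogenase of mitochondria, was at -0.24 ± 0.16.

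Several lists had a median whose sign turned with the control replicate used, among them early stress factors, touch genes, heat shock proteins and mitotic genes. Early stress transcription factors (4 of 32 entries measured, 0 called) had a median of 0.33, which was 0.80 against the control arrays of replicate 1 and -0.20 against those of replicate 2. STZ, a zinc-finger repressor of abiotic stress responses, had 59.4 and 156 on H2O2 in the elongation zone, against 16.8 and 124 on control medium. WRKY53, a regulator of senescence and defence, had 48.9 and 129 on H2O2 there, against 25.7 and 146 on control medium. For both genes replicate 2 was higher than replicate 1 in the elongation zone on either medium.

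Touch, wound and transfer genes (5 of 27 measured, 0 called) had a median of 0.23, which was 0.69 against the control arrays of replicate 1 and -0.11 against those of replicate 2. Their summed signal in the elongation zone was 947 and 1232 on H2O2, against 432 and 1188 on control medium. The meristematic sums were 353 and 502 on H2O2, against 310 and 454 on control medium. The ubiquitin ligase PUB23 had 354 and 493 on H2O2 in the elongation zone, against 107 and 406 on control medium. The calmodulin-like CML38 had 87.9 and 91.8 on H2O2 there, against 25.1 and 89.4 on control medium. In each of these genes the low value was the control array of replicate 1, and its part in these fold changes was not tested beyond the values given.

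Heat shock proteins (4 of 15 measured, median -0.019), auxin genes (9 of 20 measured, median -0.058) and mitotic genes (4 of 12 measured, median -0.047) had 0 called members. The heat shock median was -0.24 against the control arrays of replicate 1 and 0.11 against those of replicate 2, and the mitotic median was -0.27 and 0.19. The shorter lists turned too: the NADPH oxidases were at 0.081 and -0.053 against these replicates, the median of UPB1 and BBM at 0.28 and -0.12, and BGLU28, the measured sulfur gene, at 0.0064 and -0.44. AUR1, a mitotic kinase, had 713 and 751 on H2O2 in the meristematic zone, against 810 and 664 on control medium. Fewer cells of a type and less RNA per cell cannot be told apart in dissected tissue. Of the gene families read by symbol, the 14 glutathione transferases had a median of 0.048, the 47 glucosyltransferases -0.011, the 26 cytochromes P450 -0.014, the 6 WRKY factors 0.15, the 7 calmodulin-like proteins 0.083 and the 27 expansins and xyloglucan hydrolases -0.12, with 0 called in each. The medians of the glutathione transferases, glucosyltransferases, cytochromes P450 and calmodulin-like proteins were positive against control replicate 1 and negative against control replicate 2.

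**Figure D2:**
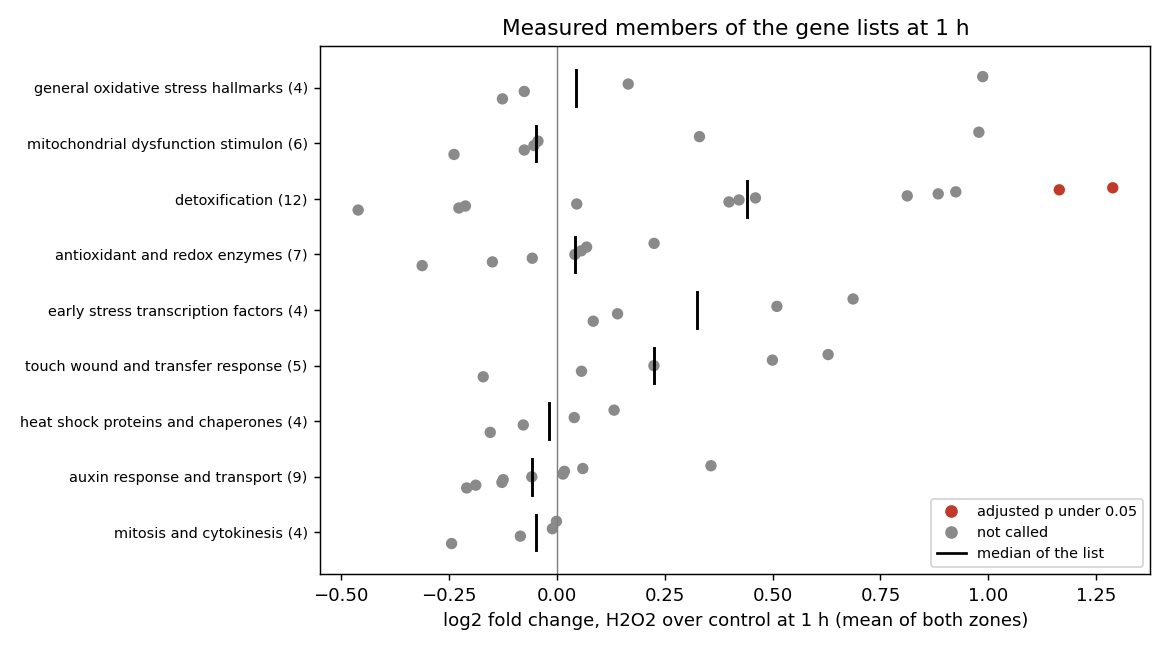
Log2 fold change of H2O2 over control medium at 1 h (mean of both zones) for each measured member of the lists with at least 4 measured members; the number measured stands in brackets, red points have an adjusted p under 0.05 and the black bar is the list's median. The 2 red points are GRX480 and AT4G01870 in the detoxification list, whose median is 0.44.

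The arrays of 3 h and 6 h, which have control arrays of their own, show what became of the genes called at 1 h. At 3 h, 7 of the 11 were called again (53 of all probe sets, 0.233%), and at 6 h 4 were called (66 of all probe sets, 0.29%). The sign was the same for 11 at 3 h and for 10 at 6 h. AT4G01870 was at 1.65 ± 0.19 at 3 h (adjusted p = 0.00024) and 1.52 ± 0.19 at 6 h. AT3G44190 was at 1.45 ± 0.17 and 1.47 ± 0.17 at these times, and both genes were called at all 3 times.

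The acyltransferase neighbours kept their direction. AT5G07860 was at 1.75 ± 0.31 at 3 h, where it was called (adjusted p = 0.0157), and 1.01 ± 0.31 at 6 h, where it was not (adjusted p = 0.233). For AT5G07870 the values were 1.17 ± 0.24 at 3 h (called, adjusted p = 0.037) and 1.00 ± 0.24 at 6 h (not called, adjusted p = 0.0917). AT5G10830 was called at 3 h (0.79 ± 0.14) and not at 6 h (0.61 ± 0.14, adjusted p = 0.0748), and AT4G24160 was called at both (0.83 ± 0.16 and 0.82 ± 0.16).

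GRX480 was called at 1 h alone among the named genes. At 3 h its elongation zone signals were 56.6 and 84.2 on H2O2, against 38.5 and 68.4 on control medium, and at 6 h they were 37.4 and 45.0 on H2O2, against 49.8 and 30.7 on control medium. The groups overlapped at both later times in that zone. In the meristematic zone they did not overlap at 3 h, with 100 and 55.7 on H2O2, against 43.1 and 45.2 on control medium. At 6 h they overlapped there too, with 47.7 and 34.8 on H2O2, against 44.4 and 37.4. Over both zones the log2 fold change of GRX480 was 0.47 ± 0.20 at 3 h and 0.02 ± 0.20 at 6 h. The test of its 1 h effect against the mean of the later ones gave a difference of 1.04 ± 0.25 with an adjusted p of 0.317, so a change over time was not shown. The same test gave probe set 250182_at an adjusted p of 0.159. It had 264 and 256 on H2O2 in the elongation zone at 1 h, 24.0 and 14.4 at 3 h and 2.92 and 3.19 at 6 h. Unlike those of GRX480, its controls in that zone were also highest at 1 h. They had 3.04 and 3.29 at 0 h, 23.9 and 93.8 at 1 h, 3.95 and 2.99 at 3 h and 12.2 and 1.77 at 6 h.

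AT2G41810 was farther below its controls later. In the meristematic zone at 3 h its signals were 262 and 288 on H2O2, against 2441 and 2144 on control medium. The log2 fold change over both zones was -2.16 ± 0.14 at 3 h (adjusted p = 2.8e-08) and -1.76 ± 0.14 at 6 h. Its 1 h effect differed from the mean of the later ones by 1.16 ± 0.17 (adjusted p = 0.0136). Among 7 probe sets called in that contrast (0.0308% of those tested) it was 1 of 2 with a single gene. The other was AT5G53320, at -1.30 ± 0.17 (adjusted p = 0.0055), whose elongation zone controls were the high arrays at 1 h.

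Some genes with a large value later were not called at 1 h. BGLU28, a beta-glucosidase known as a marker of sulfur starvation, had 17.9 and 2.26 on H2O2 in the elongation zone at 1 h, against 8.44 and 24.7 on control medium. At 3 h it had 963 and 2318 on H2O2 in that zone, against 79.4 and 64.5 on control medium. Its log2 fold change was -0.22 ± 0.42 at 1 h and 3.49 ± 0.42 at 3 h, and the contrast between 1 h and later had an adjusted p of 0.0548. MSRB5 had 1132 and 993 on H2O2 in the elongation zone at 1 h, against 1302 and 1583 on control medium, and 4486 and 3662 on H2O2 at 3 h, against 1753 and 1797 on control medium. Its contrast between 1 h and later was -1.43 ± 0.29 (adjusted p = 0.133).

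**Figure D3:**
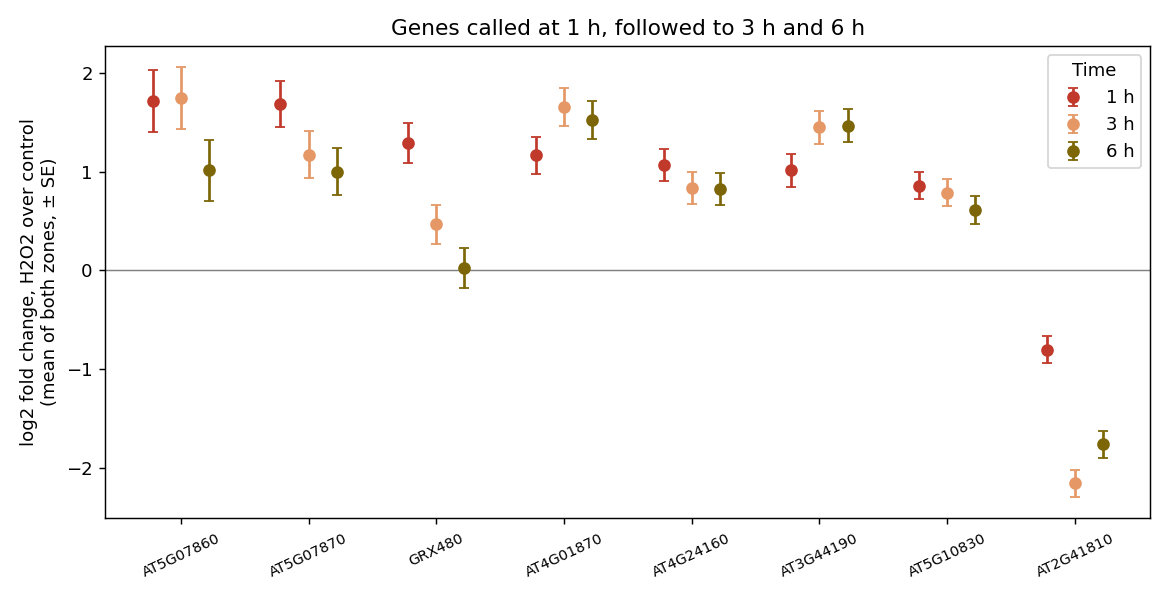
Log2 fold change of H2O2 over control medium (mean of both zones, points, with the standard error as bars) at 1, 3 and 6 h for the 8 genes called at 1 h. GRX480 is at 1.29, 0.47 and 0.02, while AT2G41810 is at -0.80, -2.16 and -1.76.

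The control arrays of 1 h were then compared with each other, because earlier results of these data had pointed to replicate 1. In both zones the control array of replicate 1 had much lower signals than the other 1 h arrays of its zone for a set of genes. For each medium and replicate number, probe sets were counted whose array lay at least 1 on the log2 scale beyond all other 1 h arrays of its zone. This had to hold in both zones. For the control arrays of replicate 1 there were 3 above and 93 below. For the control arrays of replicate 2 there were 1 above and 0 below, and for the H2O2 arrays of either replicate 0 and 0. The 2 arrays were picked with such results known, so these counts are a description.

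AT2G20670, of the DUF506 family, showed the widest gap. On H2O2 it had 334 and 258 in the meristematic zone and 1195 and 1761 in the elongation zone. On control medium replicate 1 had 7.52 and replicate 2 had 276 in the meristematic zone, and 74.2 and 1498 in the elongation zone. Replicate 2 of the control was within the range of H2O2 in both zones, and replicate 1 was far below. At 0 h its meristematic signals were 2.83 and 36.6, and its elongation signals were 247 and 708.

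DEWAX (AT5G61590), an AP2/ERF-type repressor of cuticular wax genes, was also lowest in control replicate 1 among the 1 h arrays of each zone. It had 85.1 and 95.1 on H2O2 in the meristematic zone, against 5.14 in replicate 1 and 118 in replicate 2 on control medium. Elongation zone signals were 112 and 212 on H2O2, against 16.6 and 248 on control medium. Control replicate 2 of DEWAX was thus above both H2O2 arrays in each zone. AT2G32150, a haloacid dehalogenase-like hydrolase gene, had 603 and 844 on H2O2 in the elongation zone, against 42.1 and 704 on control medium. SIS, a salt-induced serine-rich protein gene, had 133 and 214 on H2O2 in the meristematic zone, against 31.5 and 159 on control medium. AT3G07350, AT2G24550, AT4G05070 and AT4G35750 completed the 8 widest gaps on the low side.

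On the high side, EXPA15, a wall-loosening expansin gene, had 754 and 887 on H2O2 in the meristematic zone, against 2017 in replicate 1 and 1080 in replicate 2 on control medium. Elongation zone signals were 206 and 166 on H2O2, against 907 and 216 on control medium. At 0 h its signals were 1597 and 2003 in the meristematic zone and 614 and 580 in the elongation zone, near control replicate 1 of 1 h. GH9C2, an endoglucanase of cellulose processing, had 641 and 440 on H2O2 in the elongation zone, against 1087 and 414 on control medium. CYP718, a cytochrome P450, had 1.61 and 2.71 on H2O2 there, against 100.03 and 2.81 on control medium. None of these genes was called for H2O2, and each would have had a different fold change with 1 control replicate: EXPA15 was at -1.74 against replicate 1 and -0.30 against replicate 2.

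**Figure D4:**
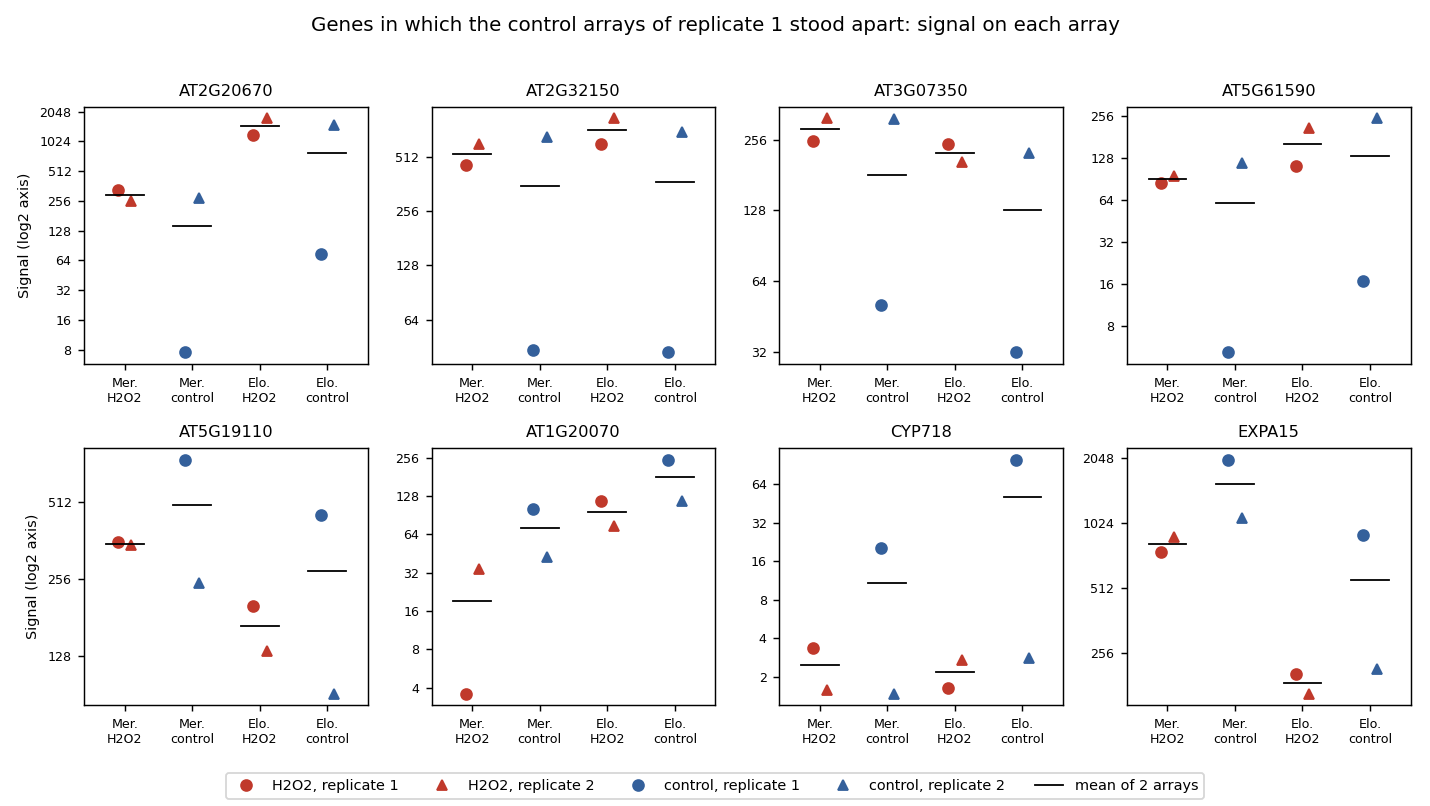
Signals (log2 axis, array intensity) of genes on the 8 arrays of 1 h. In 4 genes the control arrays of replicate 1 (blue circles) lay below the other arrays of their zone, and in 4 genes they lay above. Red marks H2O2, blue control medium, triangles replicate 2 and the black line the mean of 2 arrays. In the upper row control replicate 2 lies with the H2O2 arrays; AT2G20670 in the meristematic zone has 334 and 258 on H2O2 and 7.52 and 276 on control medium.

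Across all probe sets the control arrays of replicate 1 were also nearer to the arrays of 0 h than those of replicate 2 were. In the elongation zone the mean absolute log2 difference to the mean of the 0 h controls was 0.297 for control replicate 1 and 0.414 for control replicate 2, and 0.294 and 0.390 for the H2O2 arrays. In the meristematic zone it was 0.227 for control replicate 1 and 0.305 for control replicate 2, and 0.271 and 0.277 for the H2O2 arrays. Control replicate 1 was also nearer to the controls of 3 h and 6 h. In the elongation zone its differences to these were 0.298 and 0.293, against 0.342 and 0.340 for control replicate 2. The meristematic ones were 0.243 and 0.260, against 0.268 and 0.311. The 1 h controls of the elongation zone differed from each other by 0.411 on average (r = 0.965 across probe sets, which are not independent replicates), the widest gap of the 14 groups, against 0.252 to 0.324 in the other 13. The meristematic 1 h controls, at 0.293, were within that range.

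On the first principal component of zone-centred values (17.0% of the variance), the H2O2 arrays of 1 h were at 17.0 and 25.1 in the meristematic zone and at 15.2 and 39.5 in the elongation zone. Control replicate 2 was at 30.2 and 44.8 in these zones, and control replicate 1 at -4.99 and -18.0. The control arrays of 0, 3 and 6 h lay between -39.1 and 10.0. Among the controls, replicate 1 of 1 h was thus within the range of the other times and replicate 2 of 1 h above it. Replicate 1 was below replicate 2 on control medium at all 4 times in both zones, so an offset between the replicate numbers was present beside the 1 h gap. Whether the culture, the plate, the time of harvest or the array set the 1 h control arrays of the 2 replicates apart was not tested, and the labels give no batch.

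**Figure D5:**
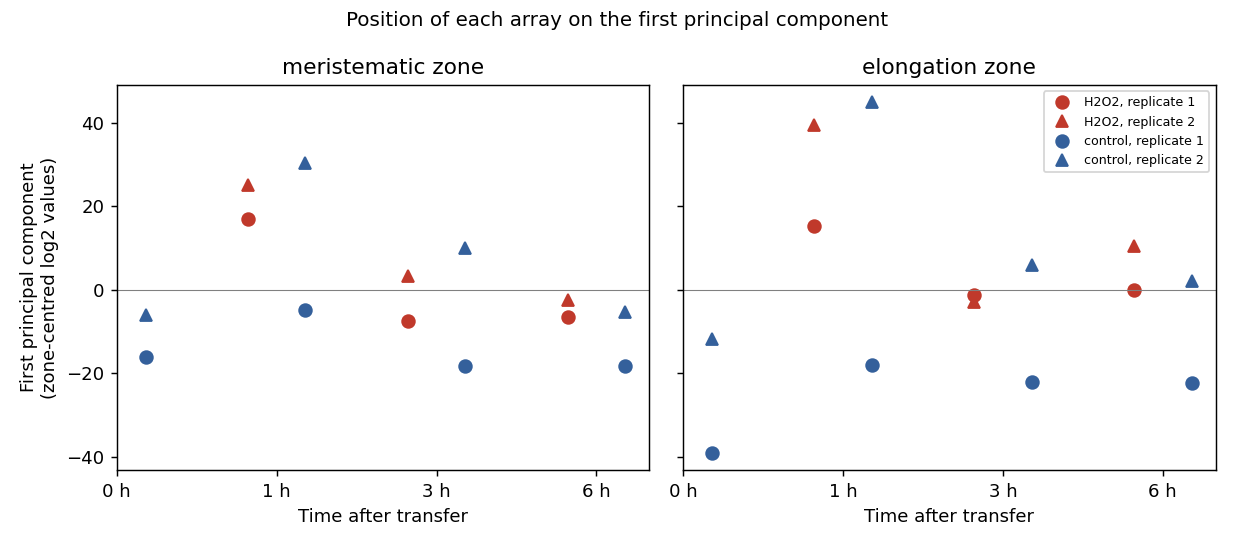
First principal component of zone-centred log2 values (17.0% of the variance) by time after transfer, for the meristematic zone (left) and the elongation zone (right); red marks H2O2, blue control medium, circles replicate 1 and triangles replicate 2. At 1 h control replicate 1 lies at -4.99 and -18.0, and the other 6 arrays lie between 15.2 and 44.8.

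The choice of control replicate decided how many genes differed from H2O2. Over both zones, 246 probe sets were higher by at least 1 on the log2 scale and 50 lower by as much on H2O2 (mean of its arrays) than in control replicate 1, while against control replicate 2 there were 16 and 22. Control replicate 2 minus control replicate 1 gave 374 higher and 145 lower, and H2O2 replicate 2 minus H2O2 replicate 1 gave 34 and 25. In the fit without both control arrays of replicate 1, 1 probe set was called, lower on H2O2 and not among the 11. In the fit without both control arrays of replicate 2, 260 were called, 213 higher and 47 lower, and these included all 11.

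All called genes kept their direction against either control replicate, which their separation from both control arrays in each zone had fixed in advance. For 9 of the 11 called probe sets control replicate 2 lay between control replicate 1 and the H2O2 mean. Against control replicate 2 alone, the log2 fold change was 1.14 for AT5G07870, 1.13 for AT5G07860, 1.11 for AT4G01870, 0.82 for AT3G44190, 0.74 for AT5G10830, 0.72 for AT4G24160 and -0.85 for AT2G41810. Against control replicate 1 alone it was 2.24 for AT5G07870, 2.31 for AT5G07860, 1.22 for AT4G01870, 1.21 for AT3G44190, 0.97 for AT5G10830, 1.42 for AT4G24160 and -0.76 for AT2G41810. For the acyltransferase pair the value thus moved by over 1 with the replicate, and for GRX480, AT4G01870 and AT2G41810 it hardly moved.

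The 1 h values were also set beside control arrays of other times, a comparison chosen after the values were seen. The 11 probe sets had been called on the same H2O2 and 1 h control arrays, so the counts that follow describe them and test nothing. In both zones the H2O2 arrays of 1 h lay beyond all control arrays of 0 h and 1 h for 11 of the 11 called probe sets, against 0.853% of all probe sets on the high side and 0.602% on the low side. They lay beyond all control arrays of 0, 1, 3 and 6 h for 9 of the 11, against 0.492% and 0.22%. With the 0 h controls in place of those of 1 h, limma called 403 probe sets, and with the mean of all 4 control times 413, and both sets included all 11, which were called on the same H2O2 arrays. In these comparisons H2O2 cannot be told apart from transfer and elapsed time. Under them AT5G14730 (2.08 and 1.71), AT1G25400 (2.09 and 1.81), AT3G20340 (2.04 and 2.02) and WRKY6 (0.83 and 0.66), which had missed the threshold against the 1 h controls, were called higher.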

How the data were processed

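Root tips were hybridised to Affymetrix ATH1 arrays after 2-cycle amplification, per the labels' protocols. The deposited values are linear intensities. MAS5 and GCRMA are named, with no role given, in the submitters' processing notes. Every array had a mean of 250 after trimming 2% at each end. Depth has no meaning here, and 2 arrays per group limit the precision.

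From these, log2(signal + 16) was computed. Of the probe sets, 64 controls were left out and 22746 tested; 13436 matched 1 gene of a RefSeq table (TAIR10.1, names only) and 8730 were not listed. The brightest probe set stood for a gene. All 28 arrays entered limma 3.58.1 (R 4.3.3) with 14 group means, the root pool (medium, time and replicate number, shared by both zones) as a random block (correlation 0.158), an intensity trend, 2-sided tests and Benjamini-Hochberg adjustment over all probe sets; 0.05 was the threshold. Alternatives changed the pseudocount, filter, normalisation, trend, blocks and arrays used; controls of other times were added after the values were seen. The script was tested on simulated data.

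Named genes were up to 12 called genes per direction, else up to 8 with the smallest p whose arrays separated in both zones; up to 6 per direction in other contrasts; called and up to 4 other members per list; and up to 8 per direction for the control check. Families follow gene symbols and were set after values were seen. Members, lists and rules were chosen with earlier results of these data known. No sequences or promoters were used here.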

Additional observations from a re-analysis of the deposited data

How the results depend on the processing

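The counts of called probe sets were the values that moved, and no named gene that was called changed sign in any fit. For the genes called over both zones, leaving out arrays could hardly turn the sign, as their H2O2 and control arrays did not overlap. Over both zones (11) the count was 6 with no intensity trend, 0 with the 8 arrays of 1 h alone, 0 without both H2O2 arrays of replicate 1, 0 without those of replicate 2, 1 without both control arrays of replicate 1, 260 without those of replicate 2, 403 with 0 h controls and 413 with all control times, and 0 to 97 when 1 array was left out. In the meristematic zone (0) it was 1 with quantile normalisation, 2 without both H2O2 arrays of replicate 2, 37 without both control arrays of replicate 2, 61 with 0 h controls, 119 with all control times, and 0 to 2 leaving out 1 array. In the elongation zone (8) it was 16 with a mean signal of at least 50, 0 with the 8 arrays alone, 0 without both H2O2 arrays of either replicate, 1 without both control arrays of replicate 1, 292 without those of replicate 2, 341 with 0 h controls, 329 with all control times, and 0 to 205 leaving out 1 array. The zone difference (0) gave 1 without both control arrays of replicate 2, 3 with 0 h controls, 1 with all control times, and 0 to 4 leaving out 1 array. The contrast with later times (7) gave 2 with a mean signal of at least 50, 12 with no pool block, 3 with no trend, 2 with a pseudocount of 1, 0 without both H2O2 arrays of either replicate, 11 and 143 without both control arrays of replicate 1 and of replicate 2, and 1 to 41 leaving out 1 array. Other settings, pseudocounts of 1 and 64 among them, stayed within 1.5 times for both zones together. The causes were not tested. An arm left with 1 array is assumed to vary like the others, and signals under 16 are near background.

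With the replicate number as a block, 70 probe sets were called over both zones (all 11 among them), 6 in the meristem alone, 38 in elongating tissue alone, 0 for the zone difference and 18 for the contrast with later times. With the 8 arrays alone and this block, 10 were called over both zones, 5 of them among the 11, and 1 in the elongation zone, which was not among the 8. The labels do not say that a number marks a shared day; replicate differences of the 1 h groups correlated between 0.109 and 0.438.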
